A study of Mus musculus with 302 samples.

Results

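The mouse genes named Zfp followed by a number code for zinc finger proteins, and every array probe that carried 1 such symbol and no other was described here in the livers of 302 F2 mice. Membership was decided by the symbol alone. The members came to 152 probes for 134 of the 11644 symbols on the array, and 14 of these symbols had more than 1 probe. All 152 probes had values in at least 90% of the livers, and 148 had a value in all 302. Of the probes, 148 carried the identifier of a mouse gene, and 4 (Zfp265, Zfp622, Zfp180 and 1 of the Zfp111 probes) were listed under an identifier outside the mouse gene table and did not enter comparisons that need a gene's position.

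The mice were the F2 offspring of C57BL/6J and C3H/HeJ, which are inbred strains that were crossed in both directions, and males and females were used together. All ate chow with 4% fat to 8 weeks of age and a Western diet with 42% fat and 0.15% cholesterol for the next 12 weeks, so there was no group on chow alone, and all were killed at 20 weeks after 12 h without food. Liver RNA of each mouse, labelled Cy3, was hybridised against 1 pool of equal portions of RNA from all the livers, labelled Cy5. The labels give no sex, genotype, cross direction or trait of a mouse, so there was 1 group of 302 livers, and the question here was how far each Zfp gene varied among them and with which genes it varied. Values were read as log10 of mouse over pool. This base and this direction are likely, but no source states them.

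Of the 23562 probes in all, 23512 could be tested. Array medians lay between -0.0117 and 0.0174. Some arrays ran against each other across probes (down to r = -0.510, with 889 of 45451 pairs of arrays under -0.3), although the dyes were the same on every array. Eif2s3y, a gene of the Y chromosome, parted the livers into 142 below and 160 above a value of -0.8, with nothing between -0.968 and -0.437, and title numbers up to 212 (159 livers) and above it (143 livers) differed in which probes had values. These splits gave 4 blocks of 77, 65, 82 and 78 livers. Each probe was centred on its mean in each block, and the blocks were not compared as groups. Whole livers were measured, so more cells of a type and more RNA per cell cannot be told apart.

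Most Zfp proteins bind DNA through rows of C2H2 zinc fingers, short loops held by a zinc ion. In many of them the fingers follow a KRAB domain, which recruits the corepressor Trim28 and, through it, the histone methyltransferase Setdb1 and heterochromatin proteins, and which is best known for silencing transposable elements. These KRAB genes arose by repeated tandem duplication and stand in clusters of close relatives on several mouse chromosomes. The symbol also covers proteins of other kinds. Zfp36 (tristetraprolin) has CCCH fingers that bind AU-rich elements of mRNAs and bring them to the deadenylation machinery, and Zfp622 is a factor of ribosome maturation.

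The Zfp probes had a slightly larger median spread among the livers than the array as a whole. The SD of the centred log10 ratio had a median of 0.0698 over the 152 Zfp probes and of 0.0613 over all probes, a ratio of 1.14, and 93 of the 152 (61.2%) lay above the median of all probes. A wide spread was defined as an SD over 2 times the median of all probes, which is 0.123 or 1.33-fold in the ratio. It was found in 15 Zfp probes, 9.87%, against 10.7% of all probes, a share near the background. Among the 15, 5 exceeded the limit in all 4 blocks taken alone and 9 in at least 3. Without the liver farthest from the median of each probe 14 were wide, against 9.97% of all probes. In livers numbered above 212 taken alone 9 were wide (5.92%, against 9.40% of all probes), and in those up to 212 there were 17 (11.2%, against 11.5%).

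**Figure D1:**
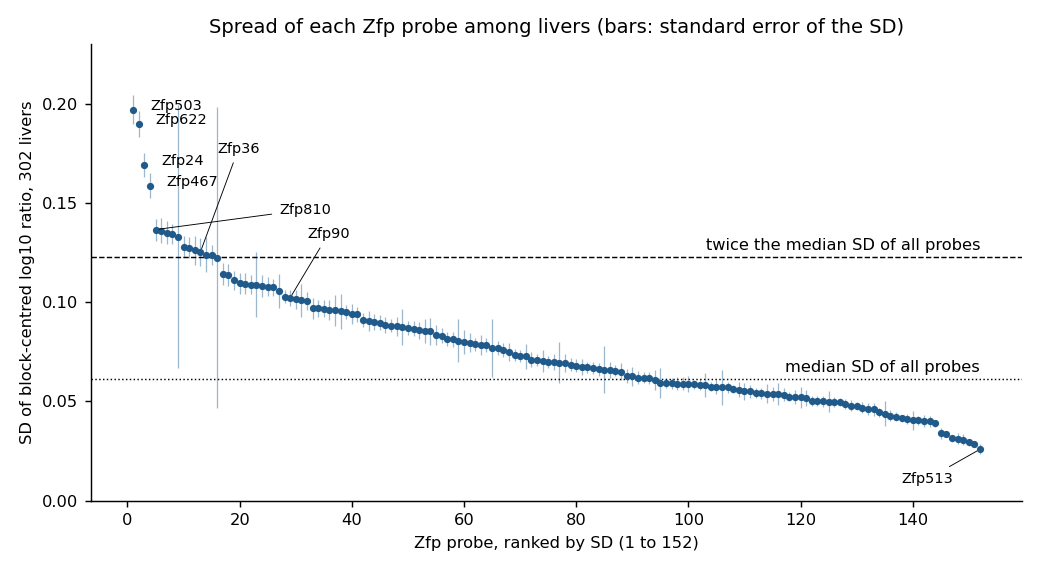
SD of the block-centred log10 ratio (vertical axis) of each of the 152 Zfp probes over 302 livers, ranked from the widest to the narrowest (horizontal axis). Bars are the jackknife standard error of the SD, and the dashed and dotted lines mark the limit of 0.123 and the median of all probes of 0.0613. The 4 widest probes stand above the rest, and the 2 very long bars belong to Zfp937 and Zfp366, in each of which 1 liver stood far from the others.

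Zfp503, a transcriptional corepressor known from embryonic development, had the largest spread. Its ratio ran from -0.569 to 0.525 around a median of -0.0472, with an SD of 0.197 ± 0.0074 (SE, n = 302), and the 5th and 95th percentiles of its centred values lay 4.16-fold apart. The spread was alike in all 4 blocks, with SDs between 0.190 and 0.208. Zfp622 followed, from -0.451 to 0.490 around 0.0818 with an SD of 0.190 ± 0.0064. Zfp24, a SCAN family zinc finger gene, ran from -0.567 to 0.341 around 0.0164 with an SD of 0.169 ± 0.0062. Zfp467, which is known to favour fat over bone cell fate in mesenchymal precursors, ran from -0.568 to 0.407 around -0.0918 with an SD of 0.159 ± 0.0061. Each of these 4 and Zfp521 (0.135 ± 0.0058) passed the limit in every block.

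The other wide probes had SDs between 0.124 and 0.137. They were Zfp810 (0.137), Zfp40 (0.136), Zfp871 (0.134), Zfp937 (0.133), Zfp111 (0.128), Zfp638 (0.127), Zfp292 (0.126), Zfp36 (0.125), Zfp28 (0.124) and Zfp120 (0.124). Zfp937 owed its place to 1 liver at -2, the lower end of the deposited values, and without that liver its SD was only 1.15 times the median of all probes. Just outside the limit stood Zfp366 (0.122), with 1 liver at 2, the upper end, and Zfp219 (0.114). At the other end were Zfp513, with an SD of 0.0260 ± 0.0026 and values from -0.0876 to 0.184, 1 probe of Zfp319 (0.0288) and Zfp266 (0.0295).

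The medians of several wide genes differed between the ranges of title numbers before centring, and what sets these ranges apart was not tested. Zfp622 had a median of -0.0944 in livers numbered up to 212 and of 0.164 in those above. Zfp467 had -0.00775 and -0.169, and Zfp638 had 0.0167 and 0.147. The 5th to 95th percentiles of the 2 ranges overlapped in each of these genes. Zfp810 had nearly the same median in both, -0.0133 and -0.00141.

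**Figure D2:**
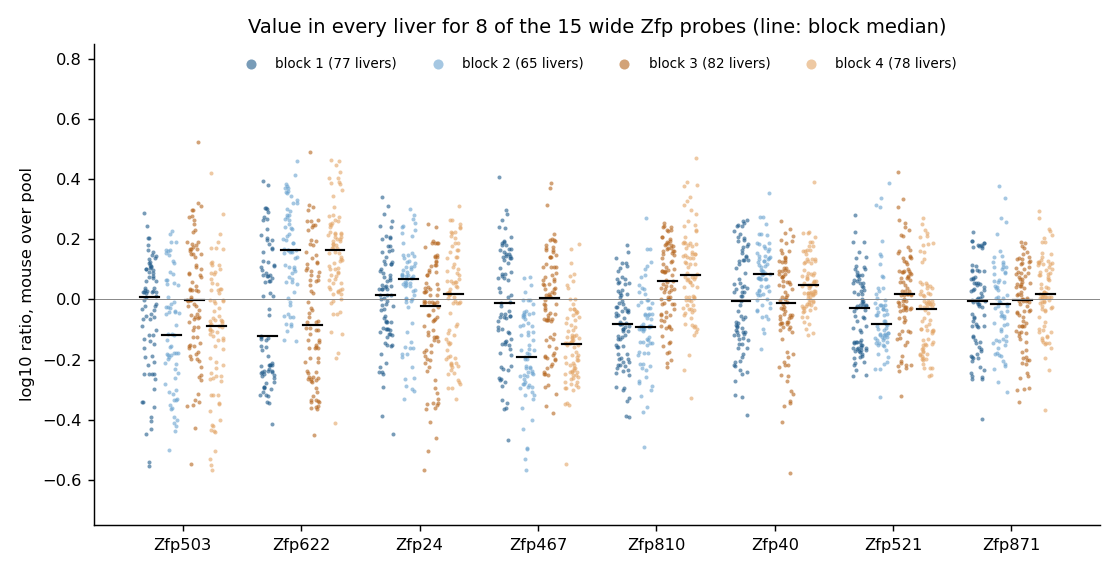
Log10 ratio of mouse over pool (vertical axis, not centred) in every liver for the 8 Zfp probes with the largest SDs, each split into 4 blocks (columns of points, 77, 65, 82 and 78 livers) with the block median as a line. Zfp622 and Zfp467 show medians that differ between blocks 1 and 3 (lower title numbers) and blocks 2 and 4 (higher numbers), and the values of all blocks overlap in every gene.

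Separate levels of expression were rare among the Zfp genes. A fit of 2 Gaussian states was called in 1 probe of 152 (0.658%) against 2.27% of all probes, and a fit of 3 equally spaced states in 1 probe (0.658%) against 0.251%. The probe with 2 states was 1 of the 2 for Zfp141. It placed 16 livers high and 286 low, with means 3.11 within-state SDs apart and no dip between them. The split departed from the 1:3 of an F2 intercross (exact binomial test, adjusted p = 1.91e-18). The high livers fell into both number ranges (9 and 7, Fisher's exact test, adjusted p = 1). The second Zfp141 probe had a correlation of 0.0566 with the first. No Zfp probe had 2 states with a dip, against 0.281% of all probes.

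Zfp369, a KRAB gene, was the member with 3 levels. Its values ran from -0.202 to 0.261 around 0.00409, with an SD of 0.103 ± 0.0033. The fit placed 105, 128 and 69 livers in the low, middle and high states, each step being 1.33-fold, and these counts departed from 1:2:1 (chi-square test, adjusted p = 0.000517). The fit was better than that with 2 states by 10.2 on the Bayesian information criterion, just past the limit of 10.

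For every probe with a position in the mouse gene table, the 20 genes with the largest correlation in size were taken, and those on its own chromosome were counted. At least 10 of the 20 shared the chromosome in 7 of 148 Zfp probes (4.73%) against 2.31% of 12620 probes of all named genes, while the median was 1 in each. This count was chosen after its values were seen. The 7 were Zfp33b (17 of 20), Zfp871 (16), Zfp369 (15), 1 probe of Zfp273 (14), Zfp24 (14), Zfp109 (11) and Zfp296 (10). Of the wide genes, Zfp24 and Zfp871 were among them. The pairs tested were those of a Zfp probe with a gene most like it, and a few pairs of Zfp genes added by name. Of these 325 pairs, 322 had an adjusted p under 0.05 in a permutation test within blocks (two-sided, 100000 permutations). In 320 p reached 1e-05, the smallest this number can give. Below, r is Pearson's over 302 livers on centred values. Most pairs were chosen for the size of r and the others by name, so p shows only that they are not near 0.

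Zfp33b moved against Gak, a kinase that works in the uncoating of clathrin vesicles and lies 43 genes away (r = -0.715, rho = -0.728, between -0.784 and -0.640 in the 4 blocks). It also moved against Cep135, a centriole protein gene (r = -0.650). Its relation to Hsd17b13, a lipid droplet enzyme of hepatocytes 12 genes away, was given within the levels of that gene, because Hsd17b13 itself had 2 separate states. There r was -0.0226 in its 65 low livers and 0.274 in its 237 high livers. Dgkq, a diacylglycerol kinase gene 45 genes away, also had 2 states, with r = 0.136 in the 83 low and -0.623 in the 219 high livers. Zfp33b was not wide, with an SD of 0.0813 and values from -0.2999 to 0.238.

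Zfp871, one of the wide genes, ran from -0.397 to 0.378 around 0.00388. It rose with Rps2, a ribosomal protein gene (r = 0.678, rho = 0.687), with Decr2, an enzyme of peroxisomal fatty acid breakdown (r = 0.647), and with the MHC class I genes H2-Q7 (r = 0.648) and H2-K1 (r = 0.605), and it fell with H2-Q5 (r = -0.659). All of these lie on its chromosome, H2-K1 44 and Rps2 185 genes away. Probes of MHC genes may read near-identical copies, which cannot be told apart here.

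Zfp24 fell as Sil1, a nucleotide exchange factor of the endoplasmic reticulum, rose (r = -0.677, rho = -0.711, between -0.722 and -0.648 in the blocks). It also fell with Npc1, the lysosomal cholesterol transporter (r = -0.599), and rose with Hars (r = 0.527), Arhgap12 (r = 0.510) and Kif5b (r = 0.505). These 5 genes lie between 42 and 93 genes from it. Hbegf, an EGF family ligand, had 2 states, with r = -0.0669 in its 75 low and 0.475 in its 227 high livers. Zfp24 and its neighbour Zfp35, 1 gene away, rose together (r = 0.368).

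Zfp369 and Zfp273 lie 43 genes apart and rose together through 1 of the 3 Zfp273 probes (r = 0.576, rho = 0.590, between 0.387 and 0.794 in the blocks). Each fell with Itga7, a laminin receptor gene on another chromosome (r = -0.673 and -0.558). Each was most like F12, coagulation factor XII, among genes with 2 states. In the 83 livers low in F12 r was -0.200 for Zfp369 and -0.195 for Zfp273, and in the 219 high livers it was -0.532 and -0.458. The 3 Zfp273 probes hardly followed each other, with r between -0.00769 and 0.0720.

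Some neighbouring Zfp genes moved together closely. Of 70 probe pairs of 2 Zfp genes at most 10 genes apart, 22 (31.4%) had r over 0.3, against 9.71% of 75706 such pairs of all named genes and 10.6% of all 10856 pairs of Zfp probes. The median r was 0.118, 0.0184 and 0.0177 in that order. The 70 pairs join 54 genes, and 2 of them had r under -0.3 (2.86%, against 4.64% of the pairs of all named genes). Close relatives can share long stretches of sequence. The probe sequences were not used here, so how far 1 probe reads the RNA of a neighbouring copy was not tested.

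The largest such value was that of Zfp109 and Zfp94, KRAB genes 4 genes apart on chromosome 7 (r = 0.859, rho = 0.828, between 0.807 and 0.883 in the blocks). Zfp109 ran from -0.390 to 0.217 around 0.0165 and Zfp94 from -0.429 to 0.222 around 0.00962. Zfp108, which lies between them, rose with Zfp109 (r = 0.632) and with Zfp94 (r = 0.592), and Zfp235 rose with both (r = 0.416 and 0.443). Zfp111 lies 1 gene from Zfp109, and the wide probe of its 2 moved the other way. That probe fell with Zfp109 (r = -0.477), Zfp108 (r = -0.333) and Zfp94 (r = -0.289). Its correlation with the second Zfp111 probe was only 0.219, so these values hold for the wide probe and not for the gene. Probes of neighbours in this cluster thus showed relations of each sign side by side.

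The starts of 4 of these genes (Zfp109, Zfp94, Zfp108 and Zfp111) are shown with the longest run of letters that all 4 hold. Promoters were taken from RefSeq, build GRCm38.p6, as 250 bases before to 50 after the start, and 107 of the 134 Zfp symbols had at least 1. The longest run held by all 4, GCATTCTGGGAA, was sought on each strand of every promoter after it was seen in these. It is in 28 of 32851 promoters in the table (0.0852%) and in 4 of 129 promoters of Zfp genes (3.10%). These are the promoters of Zfp109, Zfp94, Zfp108 and Zfp111 themselves. Since the run was taken from these 4 genes, their share was fixed by the search and is no finding about Zfp genes. All 8 genes of the chromosome 7 cluster (Zfp112, Zfp235, Zfp111, Zfp109, Zfp108, Zfp93, Zfp94 and Zfp428) had a promoter there, so 4 of the 8 held the run and 4 did not. It is in capitals below, on the strand of the gene in each, and the sequences lie at chr7:24237549-24237848 (minus strand), chr7:24316617-24316916 (minus), chr7:24254544-24254843 (plus) and, the first of 2 listed, chr7:24208100-24208399 (minus).
Zfp109: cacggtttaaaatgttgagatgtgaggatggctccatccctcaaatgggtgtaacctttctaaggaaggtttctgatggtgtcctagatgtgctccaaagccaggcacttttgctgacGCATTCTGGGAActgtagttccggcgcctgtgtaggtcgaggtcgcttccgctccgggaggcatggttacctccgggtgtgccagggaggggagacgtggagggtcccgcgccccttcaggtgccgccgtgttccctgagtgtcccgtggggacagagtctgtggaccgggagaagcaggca
Zfp94: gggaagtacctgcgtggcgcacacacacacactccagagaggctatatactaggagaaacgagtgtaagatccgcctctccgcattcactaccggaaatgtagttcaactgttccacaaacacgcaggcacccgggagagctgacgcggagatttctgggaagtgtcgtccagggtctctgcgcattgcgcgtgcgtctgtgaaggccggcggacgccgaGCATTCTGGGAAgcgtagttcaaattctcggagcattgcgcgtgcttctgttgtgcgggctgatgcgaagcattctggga
Zfp108: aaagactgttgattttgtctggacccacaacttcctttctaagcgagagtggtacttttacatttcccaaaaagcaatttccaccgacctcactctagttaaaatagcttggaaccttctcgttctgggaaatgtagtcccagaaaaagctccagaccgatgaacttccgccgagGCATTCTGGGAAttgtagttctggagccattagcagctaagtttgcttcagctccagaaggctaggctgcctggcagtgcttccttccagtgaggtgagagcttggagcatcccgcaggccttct
Zfp111: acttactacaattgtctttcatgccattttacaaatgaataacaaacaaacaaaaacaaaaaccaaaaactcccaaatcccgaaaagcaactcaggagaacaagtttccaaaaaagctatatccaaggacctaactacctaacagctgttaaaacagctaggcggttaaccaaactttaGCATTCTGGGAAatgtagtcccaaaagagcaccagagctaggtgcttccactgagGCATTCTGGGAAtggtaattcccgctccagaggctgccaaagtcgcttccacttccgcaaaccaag
Within these windows Zfp111 holds it 2 times and the others once. The Zfp94 window ends in a stretch that matches the run up to its last letter, which lies past the edge.

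**Figure D3:**
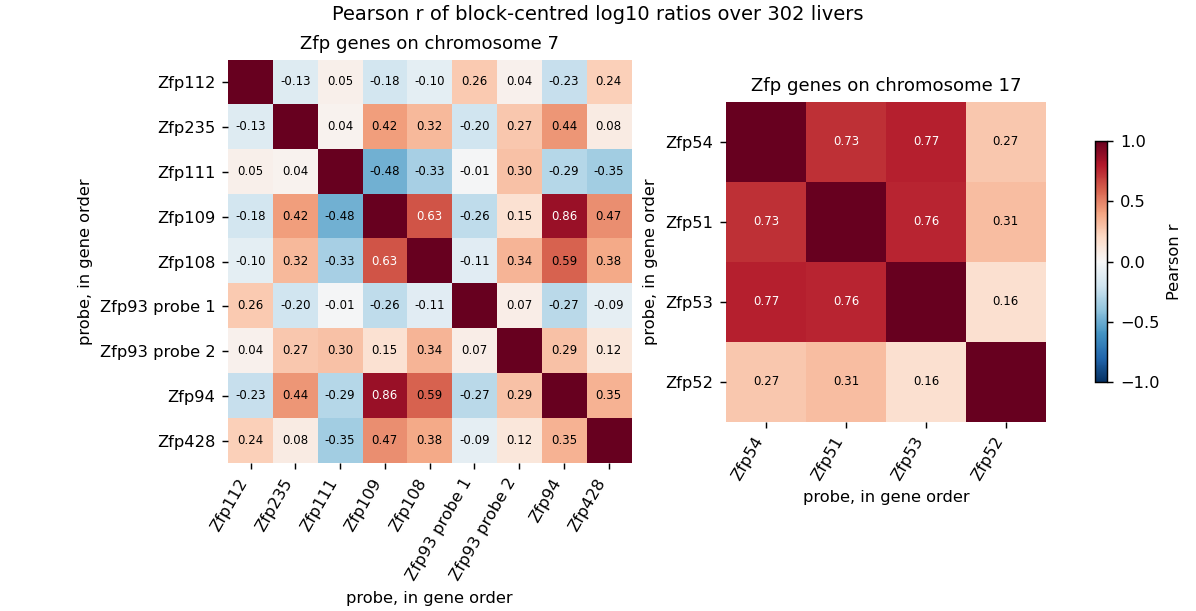
Pearson r between Zfp probes in gene order on chromosome 7 (left, 9 probes of 8 genes) and chromosome 17 (right, 4 genes), on block-centred log10 ratios over 302 livers, with colour from -1 (blue) to 1 (red). Zfp109, Zfp108 and Zfp94 form a block of values from 0.592 to 0.859, and the 1 Zfp111 probe shown is negative to them. Zfp54, Zfp51 and Zfp53 form a block from 0.729 to 0.775.

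On chromosome 17 the KRAB genes Zfp53, Zfp51 and Zfp54 lie within 2 genes of each other. Zfp53 and Zfp54 rose together (r = 0.775, rho = 0.787, between 0.716 and 0.845 in the blocks), as did Zfp53 and Zfp51 (r = 0.765) and Zfp54 and Zfp51 (r = 0.729). Their spread was ordinary, with SDs of 0.0662, 0.0681 and 0.0593 for Zfp53, Zfp51 and Zfp54. Zfp52, the next gene, followed them less closely (r = 0.161 with Zfp53, 0.306 with Zfp51 and 0.271 with Zfp54). The promoters of Zfp53 (chr17:21488738-21489037, plus strand) and Zfp54 (chr17:21422977-21423276, plus strand, the first of 3 listed) are shown to set their likeness beside that of their values. Runs of at least 10 bases found in the other sequence are in capitals.
Zfp53: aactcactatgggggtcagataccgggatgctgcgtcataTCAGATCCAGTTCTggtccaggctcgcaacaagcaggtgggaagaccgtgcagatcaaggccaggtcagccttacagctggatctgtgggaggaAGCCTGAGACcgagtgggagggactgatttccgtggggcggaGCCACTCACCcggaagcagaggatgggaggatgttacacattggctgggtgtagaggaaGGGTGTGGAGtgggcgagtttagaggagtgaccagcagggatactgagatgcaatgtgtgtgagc
Zfp54: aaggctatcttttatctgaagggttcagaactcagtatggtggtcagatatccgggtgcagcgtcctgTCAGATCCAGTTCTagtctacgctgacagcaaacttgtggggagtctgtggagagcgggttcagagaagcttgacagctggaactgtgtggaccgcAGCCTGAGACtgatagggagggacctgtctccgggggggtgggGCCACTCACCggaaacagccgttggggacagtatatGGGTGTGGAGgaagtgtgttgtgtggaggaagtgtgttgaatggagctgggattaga
In a global alignment 69.3% of their bases were identical, against a median of 58.0% and a 99th percentile of 63.3% over the 5671 pairs of 107 Zfp promoters. They share 4 runs, the longest of 14 bases.

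Other neighbours also moved together. Zfp354b and Zfp354a had r = 0.688, Zfp2 had r = 0.667 with Zfp354a and 0.634 with Zfp354b, and Zfp758 and Zfp994, also on chromosome 17, had r = 0.666. Zfp644 and Zfp326 (r = 0.504) are 2 genes apart. Zfp326 acts with RNA polymerase II in splicing. Values as large also joined genes far apart. Zfp97 and Zfp959 had r = 0.916 at a distance of 731 genes on 1 chromosome. Zfp825 rose with Zfp959 (r = 0.891) and with Zfp101 (r = 0.770), which lie on another chromosome than Zfp825. Each of these values is that of 1 probe per gene. Zfp825 had 3 probes, with r between 0.362 and 0.804 among them, and Zfp959 had 2 (r = 0.664).

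Zfp36 was the wide member closest to a known response. Its ratio ran from -0.303 to 0.481 around 0.00934, with an SD of 0.125 ± 0.0070, and it was widest in block 1 (SD 0.162). The genes most like it were Btg2, an antiproliferative gene (r = 0.708, rho = 0.662), Dusp1, a MAP kinase phosphatase (r = 0.696), Fos, a subunit of AP-1 (r = 0.690), the kinase gene Pim3 (r = 0.688) and Gadd45g, a stress response gene (r = 0.675). All 5 are known as genes switched on within minutes to hours of a stimulus. Igfbp1, a secreted binder of insulin-like growth factors whose liver mRNA rises on fasting, had r = 0.629. None of the 5 lies on the chromosome of Zfp36.

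Against the mean of 14 immediate early genes, a score that does not include Zfp36, r was 0.654 (rho = 0.557, permutation p = 1e-05) and ranged from 0.431 to 0.826 over the blocks. Without the 2 livers farthest from the median score r was 0.616. The slope was 0.123 ± 0.0082 in log10 ratio per unit of score (limma, adjusted p over all probes = 5.23e-35). The promoter of Zfp36 (chr7:28379179-28379478, minus strand) is shown because it holds a CArG box, the binding sequence of the serum response factor, in capitals.
Zfp36: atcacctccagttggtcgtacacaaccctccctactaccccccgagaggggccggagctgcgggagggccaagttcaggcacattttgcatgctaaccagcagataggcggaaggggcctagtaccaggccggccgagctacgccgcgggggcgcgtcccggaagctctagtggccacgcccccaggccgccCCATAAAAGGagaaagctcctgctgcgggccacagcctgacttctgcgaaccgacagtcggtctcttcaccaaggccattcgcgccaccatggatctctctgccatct
The box begins 58 bases before the start and is the only one in this window. A CArG box was in 1.63% of all promoters in the table and in 3 of 129 promoters of Zfp genes (2.33%). The cyclic AMP response element TGACGTCA is not in this window, and it is in 1.79% of all promoters. Of 9 immediate early genes with a promoter in the table, 1 (Egr2) held a CArG box and 2 (Btg2 and Dusp1) held TGACGTCA. Sequence outside these windows was not searched, so the counts do not show which of the genes lack a site. A match of letters is not a bound site.

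**Figure D4:**
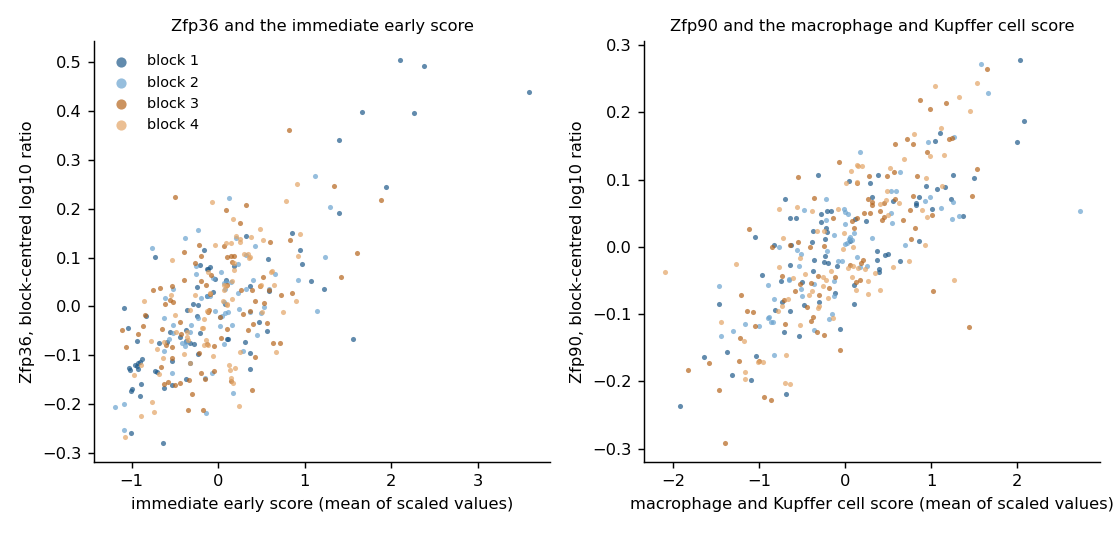
Each point is 1 of 302 livers, coloured by block. The vertical axes are the block-centred log10 ratios of Zfp36 (left) and Zfp90 (right), and the horizontal axes are the immediate early score and the macrophage and Kupffer cell score, each the mean of scaled values of 14 genes. Both clouds rise, with r = 0.654 and 0.745, and on the left a few livers, mostly of block 1, extend far to the upper right.

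Some of the remaining wide genes moved together. Of the 105 pairs among the 15, 18 had r over 0.3 and 5 under -0.3. Over all pairs of Zfp probes 10.6% lay over 0.3 and 4.88% under -0.3, and over all named pairs 6.62% and 5.52%, so the negative share was near the background. Zfp638, which binds nucleic acids and takes part in silencing unintegrated retroviral DNA, rose with Zfp120 (r = 0.830), Zfp292 (r = 0.640) and Zfp40 (r = 0.597). Zfp638 was most like Stag2, a subunit of cohesin (r = 0.860), Cops2, of the COP9 signalosome (r = 0.857), and Top2b, a DNA topoisomerase (r = 0.855). Zfp120 was most like Nsa2 (r = 0.859) and Gdi2 (r = 0.855), and Zfp292 like the ubiquitin ligase gene Ube3a (r = 0.681) and the autophagy gene Rb1cc1 (r = 0.670). Zfp638, Zfp120 and Zfp292 had correlations of -0.527, -0.452 and -0.444 with the first principal component of all probes, which held 10.8% of the variance.

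Zfp503 rose with Rgs3, a regulator of G protein signalling (r = 0.851, between 0.804 and 0.891 in the blocks), Hoxb2 (r = 0.777) and Gimap1, a GTPase gene of lymphocytes (r = 0.756), and it fell with the amino acid transporter gene Slc38a2 (r = -0.719). Zfp467 rose with Pias3, a SUMO ligase (r = 0.803), and Ogg1, which removes oxidised guanine from DNA (r = 0.741). Zfp622 moved against Zfp467 (r = -0.686) and Zfp503 (r = -0.492) and rose with Atp1b1, a subunit of the sodium pump (r = 0.829), and Lpin1, a phosphatidate phosphatase (r = 0.795). Zfp810 was most like Fkbp7 (r = 0.606) and Zfp28 most like Il13 (r = 0.612). The relations of Zfp937 rested on 1 or 2 livers: its r with Vmn1r208 was 0.753 and fell to 0.265 without the 2 livers farthest from its median.

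Each probe was then regressed on the scores of 15 gene lists with the blocks as a factor (limma, Benjamini-Hochberg adjustment over 23512 probes). The first list held the partners of KRAB proteins. With the score of 22 measured corepressor and heterochromatin genes, Trim28 and Setdb1 among them, 46 Zfp probes rose (30.3%) against 14.5% of all probes, and 7 fell (4.61%) against 15.5%. The median r was 0.0735 over the Zfp probes and -0.00820 over all. In title numbers up to 212 alone 36 rose, against 12.5% of all probes, and in those above 212 alone 19 rose, against 5.17%. Only 7 of the 22 genes followed the rest of their own list with r over 0.2, so the score is not 1 common movement. The largest values were those of Zfp64 (r = 0.444, rho = 0.424), Zfp3 (r = 0.426) and Zfp362 (r = 0.370, between 0.0519 and 0.440 in the blocks).

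With the score of 9 mRNA deadenylation and decay genes, mainly subunits of the Ccr4-Not complex, 65 Zfp probes rose (42.8%) against 26.7% of all, and 24 fell (15.8%) against 24.9%. In title numbers above 212 alone 40 rose, against 16.9% of all. Only 2 of its 9 genes followed the rest. Zfp36, whose protein recruits that complex, was not among its leading genes, which were Zfp39 (r = 0.483), Zfp51 (r = 0.466) and Zfp141 through its probe without separate states (r = 0.463).

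With the immediate early score, which leaves out Zfp36, more Zfp probes fell than rose. Of the 152, 9 rose (5.92%) against 13.0% of all probes, and 60 fell (39.5%) against 18.6%. In title numbers up to 212 alone 24 fell, against 7.03% of all, and in those above 212 alone 55 fell, against 16.6%. Those with the largest negative values were Zfp101 (r = -0.559, rho = -0.571, between -0.617 and -0.525 in the blocks) and Zfp354b (r = -0.531). All 14 genes of this list followed the rest of it. With the oxidative phosphorylation score, of 5 measured subunit genes, 70 Zfp probes fell (46.1%) against 25.8%, and 26 rose (17.1%) against 35.2%.

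**Figure D5:**
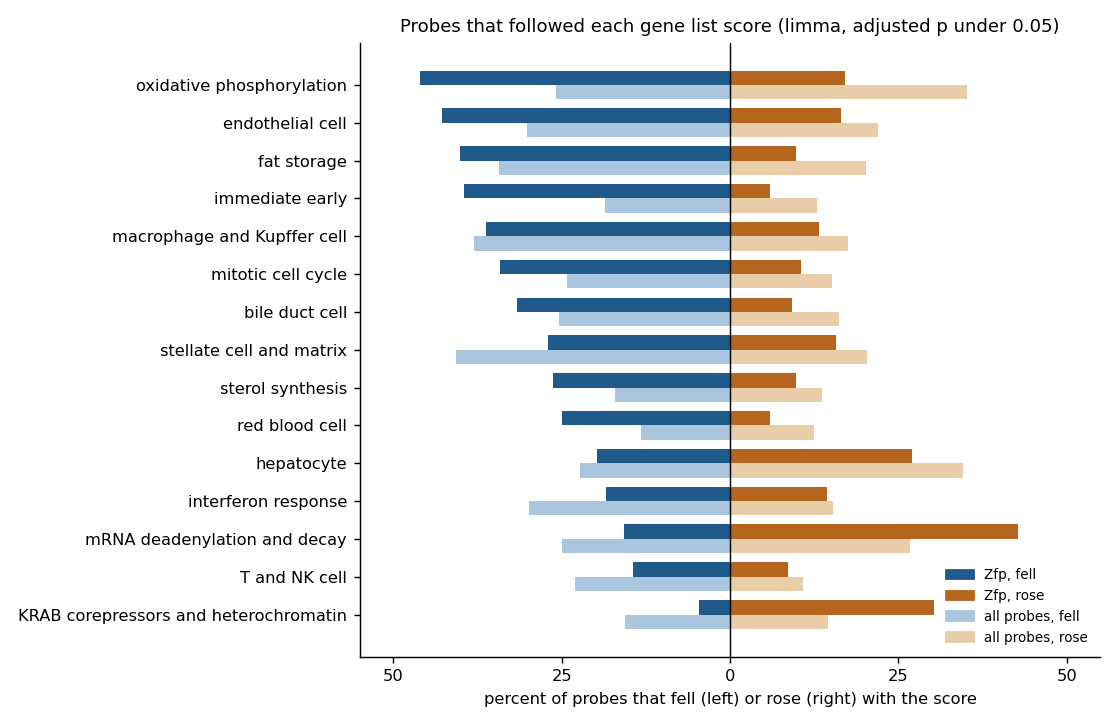
Percent of the 152 Zfp probes (dark bars) and of all 23512 probes (pale bars) that fell (left) or rose (right) with each of 15 gene list scores (rows), by limma with an adjusted p under 0.05. With the KRAB corepressor score 30.3% of Zfp probes rose against 14.5% of all, and with the immediate early score 39.5% fell against 18.6%.

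The scores of liver cell types and of other processes gave shares on either side of those of the array. With the macrophage and Kupffer cell score 20 rose (13.2%, against 17.5% of all) and 55 fell (36.2%, against 38%). With the stellate cell and matrix score 24 rose (15.8%, against 20.4%) and 41 fell (27.0%, against 40.6%). With the endothelial score 25 rose (16.4%, against 22%) and 65 fell (42.8%, against 30.2%). With the hepatocyte score 41 rose (27.0%, against 34.5%) and 30 fell (19.7%, against 22.3%). Only 4 of the 6 measured genes of that score followed the rest of the list with r over 0.2 (median r = 0.245). With the T and NK cell score 13 rose (8.55%, against 10.8%) and 22 fell (14.5%, against 23%). With the bile duct cell score 14 rose (9.21%, against 16.2%) and 48 fell (31.6%, against 25.3%), and 3 of its 4 measured genes followed the rest.

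With the fat storage score 15 rose (9.87%, against 20.2%) and 61 fell (40.1%, against 34.3%). With the interferon response score 22 rose (14.5%, against 15.3%) and 28 fell (18.4%, against 29.8%). With the sterol synthesis score 15 rose (9.87%, against 13.6%) and 40 fell (26.3%, against 17.1%). The mitotic cell cycle score had 16 that rose (10.5%, against 15.2%) and 52 that fell (34.2%, against 24.2%), and the red blood cell score had 9 that rose (5.92%, against 12.5%) and 38 that fell (against 13.2%). What part the share of these cells had in any Zfp value was not tested.

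Several of these counts changed with the first principal component as a covariate. Then 42 Zfp probes rose with the macrophage and Kupffer cell score (27.6%, against 14.7% of all) and 19 fell (12.5%, against 22.2%), the reverse of the order without it. The stellate score had 55 that rose (36.2%, against 22.2%) and 39 that fell (25.7%, against 35.6%). For the hepatocyte score 33 rose (21.7%, against 30.7%) and 55 fell (36.2%, against 22.2%). For the interferon score 34 rose (22.4%, against 9.78%) and 5 fell (3.29%, against 13.8%). For the T and NK cell score 23 rose (15.1%, against 7.08%) and 9 fell (5.92%, against 10.2%). The bile duct score had 7 that rose (4.61%, against 3.22%) and 5 that fell (3.29%, against 3.30%), shares near those of all probes. In each of these lists the order of the counts that rose and fell likewise turned. Those that fell came to 11 with the mitotic score (7.24%, against 6.32%), 8 with the red blood cell score (5.26%, against 3.78%), 9 with the sterol score (5.92%, against 6.09%), 36 with the fat storage score (23.7%, against 21.6%) and 40 with the endothelial score (26.3%, against 8.73%).

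Single members followed these scores closely. Zfp90, a KRAB repressor, ran from -0.356 to 0.275 around -0.0519. It rose with the macrophage and Kupffer cell score (r = 0.745, rho = 0.735, between 0.712 and 0.770 in the blocks, and 0.751 without the 2 farthest livers), with a slope of 0.0948 ± 0.0049 (limma, adjusted p = 2.71e-52). All 14 genes of that list, among them Adgre1, Csf1r and Clec4f, followed the rest of it. The genes most like Zfp90 were the leukocyte genes Gpsm3 (r = 0.863), Cd22 (r = 0.852) and Il10ra (r = 0.848). It also rose with the T and NK cell score (r = 0.517), the stellate score (r = 0.506) and the interferon score (r = 0.492), and fell with the hepatocyte score (r = -0.522). Zfp90 had a correlation of 0.786 with the first principal component, and with that component removed r was 0.493 with the macrophage score, 0.355 with the T and NK cell score, 0.254 with the interferon score, 0.157 with the stellate score and -0.162 with the hepatocyte score.

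Zfp423 and Zfp521 are close relatives with long rows of fingers, known for opposite parts in the commitment of fat cell precursors. Zfp423 ran from -0.334 to 0.429 around -0.0419 and rose with the fat storage score of Cd36, Cidea, Fabp4, Fitm1, Plin4 and Pparg (r = 0.594, rho = 0.601, slope 0.0805 ± 0.0063, limma, adjusted p = 4.70e-28). Zfp521 ran from -0.326 to 0.424 around -0.0255 and rose with the stellate cell and matrix score (r = 0.549), the endothelial score (r = 0.467) and the macrophage score (r = 0.444), and fell with the hepatocyte score (r = -0.524). The same scores gave like signs for both genes: Zfp521 had r = 0.435 with fat storage, and Zfp423 had r = 0.505 with the stellate, 0.478 with the endothelial, 0.362 with the macrophage and -0.451 with the hepatocyte score. Zfp704 had r = 0.567 with the stellate score and 0.506 with the fat storage score. Zfp11, with a narrow spread (SD 0.0314), went the other way, with r = -0.580 for fat storage, -0.519 for the stellate score and 0.559 for the hepatocyte score. With the first principal component removed the values with fat storage were 0.309 for Zfp423 and 0.0274 for Zfp521, those with the stellate score 0.254 and 0.317, and those with the macrophage score -0.0819 and 0.0471.

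Of 30 Zfp genes listed for a known role, 19 were measured, by 23 probes, with a median SD of 0.0674. Besides Zfp36, Zfp521 and Zfp292, none was wide. Zfp57, which guards imprinted methylation in the early embryo, ran from -1.01 to 0.385 around 0.0155, with its lowest liver apart from the rest. Zfp42 (Rex1), a marker of pluripotent cells, followed Zfp57 through 1 of its 2 probes (r = 0.714), but its 2 probes did not follow each other (r = 0.0894). Zfp106, an RNA binding protein needed by motor neurons and muscle, had the smallest spread of the 19 (SD 0.0405). Zfp207, a spindle assembly factor, ran from -0.245 to 0.170, and Zfp91, a ubiquitin ligase, from -0.203 to 0.191. Zfp462 had r = 0.563 with the oxidative phosphorylation score. Zfp148, measured by 4 probes, had r = -0.502 with it through 1 of them.

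Probes of the same Zfp gene often disagreed. Of 22 probe pairs, 6 had r over 0.3 (27.3%) against 45.2% of 4772 pairs of all named genes, with medians of 0.0897 and 0.219. Agreement was close for the pairs of Zfp825 (up to r = 0.804), Zfp148 (up to 0.713), Zfp959 (0.664) and Zfp934 (0.475). It was low for Zfp111 (0.219) and Zfp39 (0.130) and near 0 for Zfp28 (-0.000691), Zfp518b (-0.0185) and Zfp141. Values of those genes hold for the probe named and not for the gene.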

How the data were processed

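RNA of 302 livers was measured on 2-colour arrays. The authors deposited 1 table of ratios, read here as log10 of mouse over pool. How spots were read, corrected and normalized is not given in the sources used here, and neither is signal over background. Probe symbols came from the platform's annotation, and gene order and promoters from RefSeq tables of GRCm38.p6. Members and lists were chosen with earlier results of these data known. Probes with values in at least 90% of livers were centred in 4 blocks. Wide spread was an SD over 2 times the median SD, with a jackknife SE. States were fitted as Gaussian mixtures (a fall of over 10 in the Bayesian information criterion, means over 3 SDs apart, at least 5% of livers in each). Slopes on list scores, the mean of scaled genes, were tested with limma 3.58.1 (R 4.3.3). Pairs were tested with 100000 permutations within blocks (Python 3.11.15, numpy 2.4.6), each set of pairs adjusted by itself. Each mouse gave 1 array, so p-values measure the spread among mice and arrays together. Both scripts were tested on simulated data.

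Genes were named by rule: all wide or 2-state members, measured members with a listed role, the 3 with the smallest spread, up to 5 of the most like genes of each, and the 3 members most like each list score. A few pairs of Zfp genes were added by name. Genes on the same chromosome, neighbouring pairs and the promoters shown were chosen after values were seen. Alternatives varied the centring, the measure of spread, the limits, the range of title numbers, ranks, and removal of the first principal component.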

Additional observations from a re-analysis of the deposited data

How the results depend on the processing

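No paired analysis was possible because the labels give 1 group. Wide Zfp probes numbered 9 in livers numbered above 212 alone (5.92%, against 9.40% of all probes) and 2 at 3 times the median SD (1.32%, against 3.17%), and lay between 12 and 19 in the 8 other alternatives, 1 of which (each probe without its farthest liver) was added after seeing the data. Calls of 2 states were less settled: 6 without centring, 0 with the first principal component removed, 3 in either range of title numbers alone, 0 with means over 4 SDs apart and 0 with a dip required, against 1 in the main setting. The share of all probes was found only in the main setting (2.27%) and with a dip required (0.281%). The other counts of 2 states therefore have no background to be read against. In numbers above 212 alone the median number of probes following a wide or 2-state member fell to 5235.5 from 10844.5, members rising with the KRAB corepressor score to 19 from 46, and those rising with the decay score to 40 from 65. The shares of all probes that rose fell as well, to 5.17% from 14.5% with the KRAB corepressor score and to 16.9% from 26.7% with the decay score. In numbers up to 212 alone members falling with the immediate early score came to 24 against 60, and the share of all probes to 7.03% against 18.6%. Why the ranges differ was not tested, and each holds fewer livers. Members with at least 10 of 20 most like genes on their chromosome numbered 5 to 9 in 4 alternatives added after seeing the data. That is 3.38% to 6.08%, against 2.04% to 2.88% of the probes of all named genes. None of the 325 named pairs was counted as reversed in 3 alternatives. This count does not settle the sign of pairs with a small r. In the main setting 322 of the 325 had an adjusted p under 0.05 in the permutation test. Without the 2 farthest livers 4 of the pairs had only a small r. These were Zfp109 with the Zfp111 probe lacking a mouse identifier, Zfp369 with Zfp273 in 2 pairs, and Zfp937 with Smr3a. With the first principal component as a covariate, the macrophage, stellate, hepatocyte, interferon, bile duct and T and NK cell counts turned in order. Signal over background is unknown.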

Other observations

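The probe of Zfp462, a gene of embryonic chromatin regulation, had values very close to those of probes for genes of unlike function. It had r = 0.973 with Akap11, an anchor of protein kinase A, r = 0.969 with Stab2, a scavenger receptor of liver endothelium, and r = 0.967 with Sox11, a transcription factor of the embryonic nervous system. Its ratio ran from -0.214 to 0.412 around -0.000838 with an SD of 0.110. The range over blocks was 0.966 to 0.984 for Akap11, and r without the first principal component was 0.973. Probe sequences were not used and signal over background is unknown, so what these probes read in common was not tested. Stab2 is also 1 of the 11 measured genes of the endothelial score, of which 8 followed the rest with r over 0.2.

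In livers numbered up to 212 taken alone, Zfp622 passed the rule for 2 states, with 88 low and 71 high livers and means 2.39-fold apart but no dip. In livers numbered above 212, Zfp24 passed with 44 low and 99 high livers (1.98-fold) and Zfp521 with 122 low and 21 high (1.94-fold). None of these 3 passed over all livers after centring, and Zfp622 passed without it (105 low and 197 high).

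The promoters of Zfp genes were richer in CG dinucleotides than the table as a whole, with a median of 17 against 7 in 300 bases, and fewer held TATAAA (6.98% against 13.6%), while more held GGGCGG (48.8% against 35.7%). These are descriptions of the RefSeq windows, sought on each strand, with no test.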
